A study of Arabidopsis thaliana with 42 samples.

Results

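The 10 genes described here encode Aux/IAA proteins of Arabidopsis thaliana. They are IAA1 (AT4G14560), IAA2 (AT3G23030), IAA3 (AT1G04240), IAA4 (AT5G43700), IAA6 (AT1G52830), IAA7 (AT3G23050), IAA14 (AT4G14550), IAA17 (AT1G04250), IAA19 (AT3G15540) and IAA29 (AT4G32280). They were taken by locus from the 27667 loci of the count table, and 19 other Aux/IAA genes served for comparison. RNA was sequenced from whole seedlings, 5 days old, in 42 libraries that formed 14 groups of 3 replicates. Every seedling was of ecotype Col-0 background, and was either Col-0 itself, with no further change named, or of the genotype labelled rh6812. That name is taken here to stand for RH6, RH8 and RH12, RNA helicases related to yeast DHH1 and animal DDX6. The sources used here do not name the alleles of rh6812. In each genotype, poly(A)+ RNA of untreated seedlings was sequenced as total RNA and as a polysome-bound fraction. In each genotype, RNA depleted of rRNA was sequenced at 0, 15, 30, 60 and 120 min of treatment with cordycepin, a nucleoside that ends growing RNA chains, and the 0 min groups bear that label too. The study's title names the question, which is whether these helicases keep some mRNAs short-lived.

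Aux/IAA proteins are repressors of the response to auxin, the plant hormone that directs growth and organ formation. They bind ARF transcription factors through a shared domain and recruit TOPLESS corepressors, which silence the genes that ARFs sit on. Auxin glues an Aux/IAA protein to a TIR1/AFB receptor, which marks the repressor for destruction and frees the ARF, and many Aux/IAA genes are themselves switched on by ARFs, closing a feedback loop. Both the proteins and many of their mRNAs are known to be short-lived. DHH1 and DDX6 relatives act in mRNA decapping and in translational repression.

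The libraries held 11783437 to 25864031 counts in total RNA, 4611462 to 30654342 in polysome RNA and 11463206 to 22251739 in rRNA-depleted RNA. The labels do not say whether replicates were separate cultures, so every p-value below measures only how far these samples scatter, and that scatter may be technical. The helicase transcripts went only partly with the label. In total RNA the log2 difference between the libraries labelled rh6812 and Col-0 was -3.48 ± 0.14 (SE) for RH8, -0.66 ± 0.10 for RH12 and 1.27 ± 0.08 for RH6. RH6 thus went against the label, and each direction below is a direction in the libraries labelled rh6812, written rh6812 for short. The material was whole seedlings, in which fewer cells of a type and less RNA per cell cannot be told apart.

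The windows upstream of the genes are shown first, as a description of sequence where ARFs can bind. Whether these letters have a part in how the transcripts moved was not tested. Each window holds the 250 bases before the annotated gene start, read from the RefSeq genome and annotation of TAIR10.1. The letters searched, on both strands, were TGTCTC, the classical auxin response element bound by ARFs, TGTCGG, a variant that ARFs bind, and CACGTG, the G-box bound by bHLH and bZIP factors. The motifs were chosen with the values of these genes known. TGTCTC was found in 3 of the 10 windows and in 10.9% of all 27443 windows of this length. TGTCGG was found in 1 of the 10 and in 4.16% of all, and CACGTG in 2 of the 10 and in 6.49% of all. IAA19, IAA6 and IAA1 are shown because they hold TGTCTC, and IAA29 because it holds none of the 3 motifs and was the transcript with the largest genotype difference of the 10. Capitals mark the motif letters on either strand, so that GAGACA and CCGACA are TGTCTC and TGTCGG read on the other strand, and no matches overlap in these windows. The windows lie at chr3:5263751-5264000 (plus strand, IAA19), chr1:19673653-19673902 (minus strand, IAA6), chr4:8360746-8360995 (plus strand, IAA1) and chr4:15583082-15583331 (plus strand, IAA29), and none overlaps another protein-coding gene.
IAA19: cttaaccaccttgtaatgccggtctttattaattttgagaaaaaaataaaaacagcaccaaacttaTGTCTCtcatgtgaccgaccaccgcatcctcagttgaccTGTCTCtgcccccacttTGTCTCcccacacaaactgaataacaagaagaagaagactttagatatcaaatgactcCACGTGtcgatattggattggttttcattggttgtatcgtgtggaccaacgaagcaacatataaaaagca
IAA6: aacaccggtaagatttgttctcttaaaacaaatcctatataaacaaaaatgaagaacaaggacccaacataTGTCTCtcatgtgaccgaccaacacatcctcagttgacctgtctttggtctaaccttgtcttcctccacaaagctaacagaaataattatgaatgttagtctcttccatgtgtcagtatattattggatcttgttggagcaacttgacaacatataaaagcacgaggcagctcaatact
IAA1: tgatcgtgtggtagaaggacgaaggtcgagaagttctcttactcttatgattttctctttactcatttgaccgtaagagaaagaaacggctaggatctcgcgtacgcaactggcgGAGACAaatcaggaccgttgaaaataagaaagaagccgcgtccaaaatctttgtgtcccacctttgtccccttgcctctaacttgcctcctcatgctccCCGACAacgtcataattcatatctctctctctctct
IAA29: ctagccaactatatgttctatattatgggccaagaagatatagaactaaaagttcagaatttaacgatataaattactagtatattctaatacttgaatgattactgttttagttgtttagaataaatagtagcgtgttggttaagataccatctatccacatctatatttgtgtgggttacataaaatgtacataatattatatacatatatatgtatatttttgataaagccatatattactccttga
IAA19 held 3 copies of TGTCTC and 1 G-box, and IAA6 held 1 copy of TGTCTC. IAA1 held 1 copy each of TGTCTC and TGTCGG, and IAA7 held 1 G-box. The windows of the other members held none of the 3 motifs. IAA6 and IAA19, which are close paralogues, shared a run of 23 letters around the TGTCTC, taTGTCTCtcatgtgaccgacca, starting 181 and 186 bases before their gene starts. A further 20 letters, catcctcagttgacctgtct, were shared at 155 and 160 bases before the starts, and neither run was found in any other of the 27443 windows on either strand. A match is a description of the letters and not evidence of a bound site, and the absence of a match says nothing about a factor.

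The 10 transcripts differed widely in level. Levels between genes are compared as CPM (counts scaled to a common library size) per kilobase of the longest annotated transcript, written CPM per kb, with libraries scaled by TMM factors. In Col-0 total RNA, IAA7, mutated in the dominant auxin-resistant line axr2, stood far above the rest at 214 ± 14.4 CPM per kb (SD, n = 3). IAA4, at 47.1 ± 7.45, and IAA17, at 46.5 ± 3.20, overlapped over their replicates, as did IAA17 and IAA2, at 37.3 ± 6.54 CPM per kb. Below them came IAA3 (25.4), IAA19 (17.3), IAA14 (9.72), IAA29 (8.40), IAA1 (6.44) and IAA6 (1.27 CPM per kb). In this lower part of the order IAA14 overlapped with IAA29, and IAA29 with IAA1, while the other neighbours stood apart. In rh6812 total RNA IAA7 again led at 254 ± 10.7 CPM per kb, and IAA29 (0.177 ± 0.00328 CPM per kb) and IAA6 (0.224 ± 0.157) came last and overlapped. In the rRNA-depleted libraries at 0 min IAA2, whose promoter is a common auxin reporter, led in Col-0 at 125 ± 11.0 CPM per kb and in rh6812 at 74.9 ± 12.9 CPM per kb. The poly(A)+ and rRNA-depleted libraries were made by different methods and scaled separately, so only the orders, not the levels, can be read across them.

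In total poly(A)+ RNA, 9 of the 10 transcripts fell in rh6812 and IAA7 rose (edgeR quasi-likelihood test, Benjamini-Hochberg adjusted over all 20949 genes tested, threshold 0.05). The median log2 difference was -1.27 for the 10 and -0.03 for all genes. Over all genes, 32.4% were called lower and 32.2% higher, so a call by itself was common in these libraries. In polysome RNA all 10 fell, with a median of -1.87 against -0.05 for all genes, of which 33.3% were called lower and 30.2% higher. The 12 poly(A)+ libraries were fitted together.

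IAA29, whose transcript is known to be raised by shade and warmth, had 13.1, 11.2 and 7.21 CPM in the Col-0 total libraries against 0.226, 0.219 and 0.220 CPM in rh6812, from 3, 5 and 5 counts. In polysome RNA it had 19.3, 13.5 and 17.1 CPM in Col-0 against 0.254, 0.243 and 0 CPM in rh6812, from 5, 1 and 0 counts. The library without a count allows up to 0.360 CPM, at 3 counts, and such limits cover counting error only. Every Col-0 library was thus far above every rh6812 library. The log2 difference was -5.56 ± 0.31 in total RNA (edgeR adjusted p = 4.69e-15) and -6.46 ± 0.37 in polysome RNA (adjusted p = 6.48e-15). The rh6812 values rest on 13 and 6 counts in all, so the size of these differences is less precise than their direction.

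IAA19, mutated in the dominant massugu2 line with reduced bending growth, had 17.0, 17.3 and 18.0 CPM in Col-0 total RNA against 6.19, 5.90 and 4.63 CPM in rh6812. It had 25.9, 22.8 and 28.8 CPM in Col-0 polysome RNA against 5.38, 4.38 and 3.48 CPM in rh6812. The groups did not overlap in either RNA population, and the log2 differences were -1.66 ± 0.14 in total and -2.48 ± 0.16 in polysome RNA. Its paralogue IAA6, mutated in shy1, was the scarcest, with 1.30, 0.775 and 1.19 CPM in Col-0 total RNA against 0.226, 0.306 and 0.0441 CPM in rh6812. In polysome RNA IAA6 had 2.23, 3.64 and 3.34 CPM in Col-0 against 0.152, 0.243 and 0 CPM in rh6812, from 3, 1 and 0 counts. All rh6812 libraries of IAA6 lay below all Col-0 libraries, with log2 differences of -2.48 ± 0.50 and -4.50 ± 0.57.

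IAA1 to IAA4 form a clade of early auxin-induced genes, and all 4 fell in both RNA populations. IAA1, mutated in the dominant axr5 line, had 5.66, 6.82 and 5.78 CPM in Col-0 total RNA against 1.74, 1.88 and 1.59 CPM in rh6812. In polysome RNA it had 18.1, 17.7 and 21.0 CPM in Col-0 against 1.22, 3.65 and 2.40 CPM in rh6812. The gap between the genotypes was wider in polysome RNA, at -3.29 ± 0.22 on the log2 scale against -1.81 ± 0.21 in total RNA. IAA2 had 46.4, 60.8 and 44.6 CPM in Col-0 total RNA against 19.4, 23.8 and 18.8 CPM in rh6812, and 189, 183 and 187 CPM in Col-0 polysome RNA against 53.5, 55.7 and 56.4 CPM in rh6812. For IAA2, IAA3 (known from the dominant shy2 line) and IAA4 the log2 differences in total RNA were -1.29 ± 0.11, -0.98 ± 0.11 and -1.26 ± 0.12. In polysome RNA they were -1.76 ± 0.10, -1.27 ± 0.11 and -1.67 ± 0.12. No rh6812 library of these genes reached the lowest Col-0 library of the same RNA population.

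IAA7, IAA14 and IAA17 belong with IAA16 to another clade and are known from the dominant lines axr2, solitary-root and axr3. IAA7 had 353, 329 and 309 CPM in Col-0 total RNA against 396, 406 and 373 CPM in rh6812, and 717, 652 and 678 CPM in Col-0 polysome RNA against 529.6, 571 and 491 CPM in rh6812. The groups did not overlap in either population, but rh6812 was the higher in total RNA (log2 difference 0.24 ± 0.09, edgeR adjusted p = 0.0131) and the lower in polysome RNA (-0.37 ± 0.09, adjusted p = 0.000439). The rise in total RNA missed the threshold without Col-0 total replicate 3 (adjusted p = 0.0671), without rh6812 total replicate 1 (adjusted p = 0.0749) and with library size alone in place of TMM (0.10 ± 0.08, adjusted p = 0.308). IAA14, a repressor of lateral root initiation, had 16.8, 16.0 and 17.5 CPM in Col-0 total RNA against 8.61, 9.14 and 8.11 CPM in rh6812. In polysome RNA IAA14 had 23.2, 24.5 and 26.5 CPM against 5.84, 7.05 and 6.60 CPM. IAA17 had 62.0, 56.8 and 65.1 CPM in Col-0 total RNA against 44.2, 39.5 and 42.3 CPM, and 63.8, 68.5 and 77.4 CPM in polysome RNA against 23.9, 31.1 and 24.0 CPM. Both fell more in polysome than in total RNA, by -1.97 ± 0.13 against -0.96 ± 0.11 for IAA14 and by -1.45 ± 0.11 against -0.55 ± 0.09 for IAA17.

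Counted by replicates, all 3 rh6812 libraries lay below all 3 Col-0 libraries for 9 of the 10 transcripts in total RNA, where 34.5% of all genes did so, and above them for IAA7, where 33.8% of all genes did so. In polysome RNA they lay below for all 10 transcripts, where 35.1% of all genes did so.

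**Figure D1:**
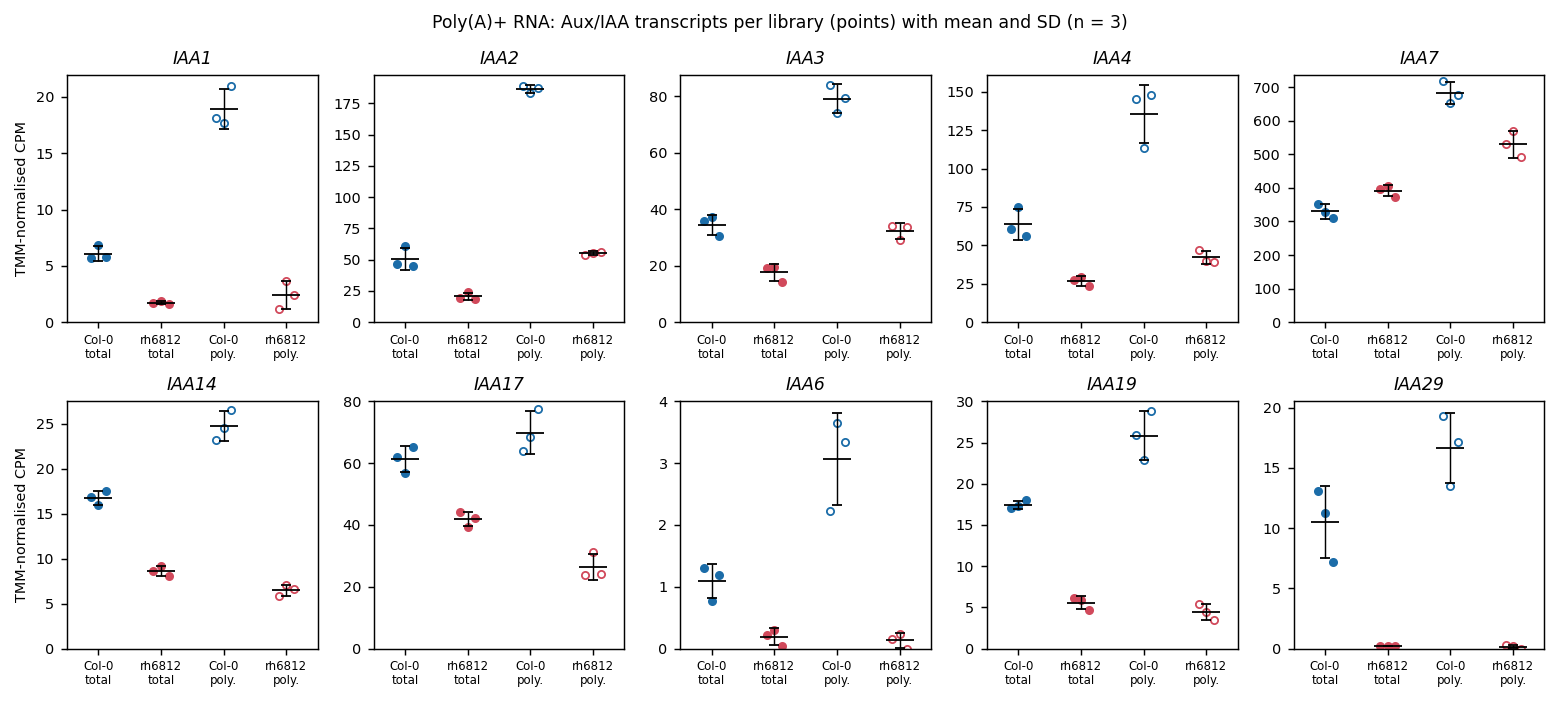
TMM-normalised CPM of each Aux/IAA transcript (y axis, linear, from 0) in Col-0 (blue) and rh6812 (red), in total (filled points) and polysome-bound (open points) poly(A)+ RNA, with bars for the mean and SD of 3 libraries. IAA7 alone has rh6812 above Col-0 in total RNA, and IAA29 in rh6812 lies at 0.226 CPM or less in total RNA.

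Polysome and total RNA were compared next, as the log2 ratio of CPM in polysome to CPM in total RNA. The ratio gives enrichment relative to the typical transcript, since each library is scaled by itself, and not the share of a transcript that was on polysomes. These ratios come from the same 12 libraries as the genotype differences above and are not independent of them. In Col-0, 9 of the 10 transcripts were higher in polysome RNA, where 30.7% of all genes were called higher, and the median was 1.07 against 0.04 for all genes. IAA2, at 1.88 ± 0.10, and IAA1, at 1.63 ± 0.16, had the largest ratios. IAA6 (1.45 ± 0.32), IAA3 (1.19 ± 0.10), IAA4 (1.09 ± 0.11) and IAA7 (1.05 ± 0.09) came next, above IAA29 (0.65 ± 0.17), IAA19 (0.58 ± 0.12) and IAA14 (0.56 ± 0.11). IAA17 had the smallest at 0.19 ± 0.09 and missed the threshold (edgeR adjusted p = 0.0805), and without Col-0 polysome replicate 1 it was 0.26 ± 0.10 and called (adjusted p = 0.0373). In rh6812, 4 were higher (26% of all genes) and 2 were lower (27.2% of all genes), with a median of -0.04 against -0.01 for all genes. The higher ones were IAA2 (1.41 ± 0.11), IAA3 (0.90 ± 0.12), IAA4 (0.67 ± 0.13) and IAA7 (0.44 ± 0.09). The lower ones were IAA14 (-0.45 ± 0.14) and IAA17 (-0.71 ± 0.11), although the IAA14 ratio was -0.31 ± 0.17 and missed the threshold without rh6812 polysome replicate 1 (adjusted p = 0.146). The ratios of IAA1 (0.15 ± 0.29), IAA19 (-0.25 ± 0.18), IAA29 (-0.24 ± 0.80) and IAA6 (-0.57 ± 0.91) were not called, and without that same library IAA1 was at 0.75 ± 0.30 and called higher (adjusted p = 0.0419).

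The genotype difference of that ratio, tested as an interaction and called ribosome association here, was negative for all 10 and was called for 6, all lower. Over all genes 6.45% were called lower and 3.3% higher, and the median was -0.86 for the 10 against -0.05 for all genes. IAA7 (-0.61 ± 0.12, edgeR adjusted p = 0.000899), IAA14 (-1.02 ± 0.18, adjusted p = 0.000183) and IAA17 (-0.90 ± 0.14, adjusted p = 4.74e-05) were called. These 3 calls held in every one of the alternatives, with each of the 12 libraries left out in turn. IAA16 of the same clade, not among the 10, was at -0.27 ± 0.12 and not called (adjusted p = 0.164). IAA1 was called at -1.48 ± 0.32 (adjusted p = 0.00245), but its 3 rh6812 polysome libraries were spread from 1.22 to 3.65 CPM, and without replicate 1 of them the value was -0.84 ± 0.32 and not called (adjusted p = 0.113). IAA19 was called at -0.83 ± 0.21 (adjusted p = 0.00964), and without rh6812 polysome replicate 3 it was -0.62 ± 0.21 and not called (adjusted p = 0.076). IAA2, at -0.47 ± 0.15 (adjusted p = 0.0384), lost the call in 10 of 12 fits that left out a library, with adjusted p up to 0.213.

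The other 4 were not called, with IAA3 at -0.29 ± 0.15, IAA4 at -0.41 ± 0.17, IAA29 at -0.89 ± 0.82 and IAA6 at -2.02 ± 0.96. The wide errors of IAA6 and IAA29 go with their 4 and 6 counts in the rh6812 polysome libraries, at which depth a difference of the size seen for IAA14 was not detectable. IAA4 passed the threshold without Col-0 polysome replicate 2 (-0.52 ± 0.16, adjusted p = 0.0396) and without Col-0 total replicate 2 (-0.55 ± 0.16, adjusted p = 0.0245).

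**Figure D2:**
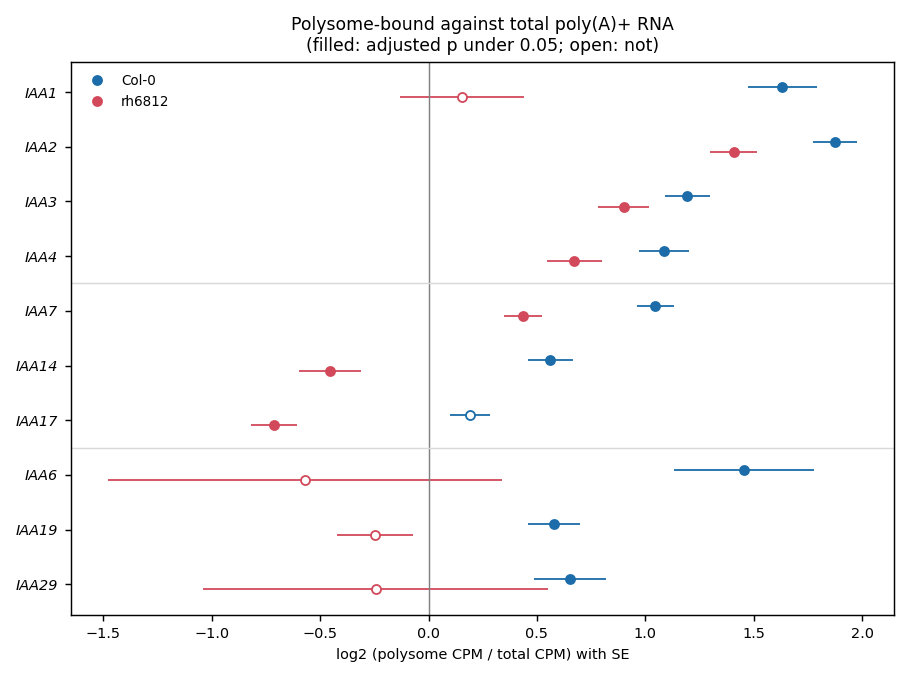
Log2 ratio of CPM in polysome-bound to CPM in total poly(A)+ RNA (x axis) for each Aux/IAA transcript in Col-0 (blue) and rh6812 (red), with SE bars, filled where the edgeR adjusted p is under 0.05, and with grey lines between IAA1 to IAA4, IAA7 to IAA17, and IAA6 to IAA29. Every red point lies to the left of its blue point, and IAA14 and IAA17 in rh6812 lie below 0 at -0.45 and -0.71.

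In the separate rRNA-depleted libraries, all 10 transcripts were lower in rh6812 at 0 min (edgeR, adjusted over 21486 genes), where 24% of all genes were called lower and 24.4% higher. The median was -1.09 for the 10 and -0.02 for all genes. All 3 rh6812 libraries lay below all 3 Col-0 libraries for each of the 10, as they did for 27.1% of all genes. IAA29 again differed the most, with 11.8, 12.7 and 10.1 CPM in Col-0 against 1.51, 0.823 and 0.121 CPM in rh6812, from 34, 14 and 3 counts (-3.83 ± 0.43, adjusted p = 1.56e-07). IAA19 had 5.06, 6.33 and 10.3 CPM in Col-0 against 2.14, 2.53 and 1.69 CPM (-1.79 ± 0.41). IAA6 was at -2.95 ± 0.88, and its adjusted p was 0.0538 without rh6812 replicate 2 and 0.0513 without rh6812 replicate 3. Its Col-0 values ran from 0.942 to 3.26 CPM.

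Among IAA1 to IAA4 the differences at 0 min were -1.31 ± 0.29, -0.74 ± 0.16, -1.34 ± 0.16 and -0.88 ± 0.16, in that order. IAA1 had 10.6, 17.9 and 12.9 CPM in Col-0 against 8.11, 4.82 and 3.78 CPM in rh6812, and IAA2 had 187, 162 and 160.0 CPM against 121, 88.1 and 95.6 CPM. Both pairs of groups stood apart. IAA14 was at -0.66 ± 0.15, IAA17 at -0.55 ± 0.16 and IAA7 at -0.54 ± 0.16. For IAA17 the call was lost without rh6812 replicate 2 (adjusted p = 0.0501) and with library size alone (adjusted p = 0.0864), and for IAA7 without Col-0 replicate 1 (adjusted p = 0.0819) and with library size alone (adjusted p = 0.101).

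IAA7 had 145, 145 and 98.7 CPM in Col-0 at 0 min against 88.6, 86.8 and 91.1 CPM in rh6812. It was lower in rh6812 in polysome poly(A)+ RNA too (log2 difference -0.37), and higher only in total poly(A)+ RNA (0.24). The calls at 0 min and in total RNA were both lost with library size alone. The total poly(A)+ and rRNA-depleted libraries differ in RNA selection, in kit and in the cordycepin label. The part of each in the unlike signs of IAA7 was not tested.

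**Figure D3:**
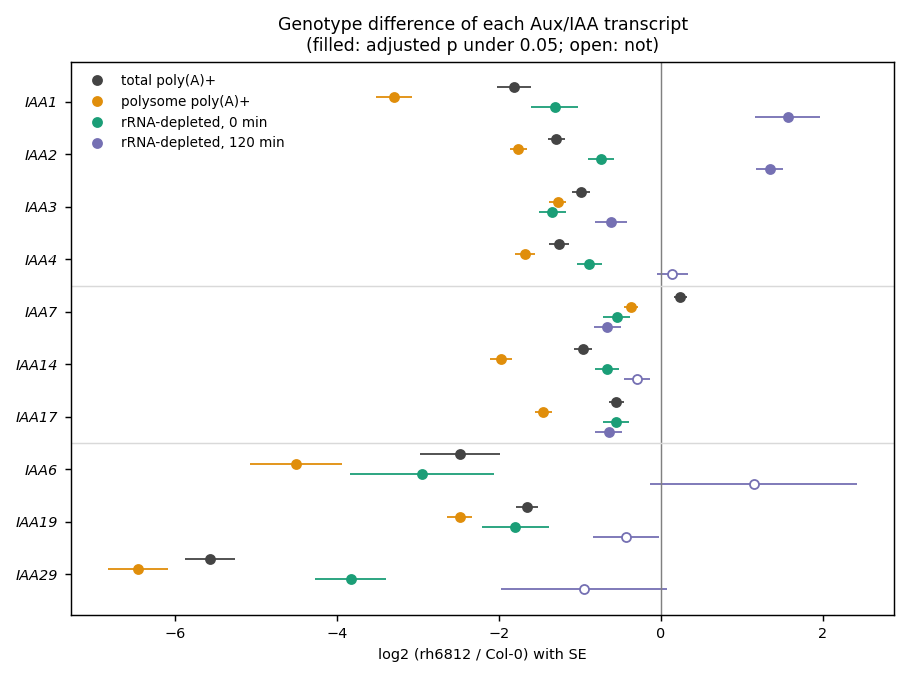
Log2 difference between rh6812 and Col-0 (x axis, with SE bars) for each Aux/IAA transcript in total poly(A)+ RNA (dark grey), polysome poly(A)+ RNA (orange) and rRNA-depleted RNA at 0 min (green) and 120 min (purple), filled where the edgeR adjusted p is under 0.05. Only the total RNA point of IAA7 lies right of 0 among the first 3 kinds, while at 120 min IAA1 and IAA2 lie right of 0 with filled points, and IAA4 and IAA6 with open points.

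During cordycepin 5 of the 10 transcripts fell early in Col-0, IAA7, IAA14 and IAA17 changed little, and IAA6 and IAA19 were lower at the later times with wide scatter. Changes are relative to the bulk of transcripts, since TMM scaling holds the typical transcript level, and so they give no absolute lifetime. At 15 min, all 3 Col-0 libraries already lay below all 3 of 0 min for 5 of the 10, as they did for 7.67% of all genes. These 5 were IAA1, IAA2, IAA3, IAA4 and IAA29. By 120 min, 7 of the 10 had separated downward in Col-0 (27.8% of all genes), with IAA6 and IAA14 added to the 5, and in rh6812 IAA2, IAA3 and IAA4 had (18% of all genes) while IAA7 and IAA19 had separated upward (16.8% of all genes). In rh6812 no transcript of the 10 had separated downward by 15 min (6.39% of all genes), and IAA7 had separated upward (6.02% of all genes). These rh6812 counts at 15 min are close to the shares over all genes and show no trait of the 10. The rh6812 libraries of IAA29 at 0 min ran from 14.7% to 185% of their mean, which left little room to separate.

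IAA2 was the most abundant of these 5 at 0 min. In Col-0 it stood at 50.0% ± 7.13 of its 0 min mean at 15 min (SD, n = 3), at 31.5% ± 2.17 at 30 min, 16.3% ± 1.35 at 60 min and 13.2% ± 0.278 at 120 min. In rh6812 it stood at 99.1% ± 19.5, 78.0% ± 15.6, 60.4% ± 9.39 and 56.1% ± 11.4 at the same times. Most of the loss in Col-0 thus came in the first 30 min, and the curve flattened after 60 min. By 120 min the order of the genotypes had turned, with 22.9, 21.9 and 22.4 CPM of IAA2 in Col-0 against 63.3, 64.2 and 43.6 CPM in rh6812.

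IAA1 stood at 42.1% ± 10.4 of the 0 min mean after 15 min and 8.79% ± 1.78 after 120 min in Col-0, against 93.8% ± 36.0 and 66.5% ± 17.4 in rh6812. At 120 min IAA1 had 1.48, 0.994 and 1.17 CPM in Col-0 against 4.35, 4.17 and 2.59 CPM in rh6812. The groups did not overlap, and rh6812 was now the higher. IAA3 and IAA4 fell in both genotypes, to 19.7% ± 4.36 and 16.9% ± 1.63 in Col-0 and to 32.9% ± 8.95 and 35.0% ± 6.03 in rh6812 at 120 min. IAA29 fell the furthest in Col-0, to 32.1% ± 20.2 at 15 min and 2.55% ± 0.972 at 120 min, from 11.8, 12.7 and 10.1 CPM to 0.308, 0.398 and 0.175 CPM. In rh6812 it went to 17.3% ± 7.41 at 120 min, from 51 counts over the 3 libraries of 0 min, of which replicate 1 held 34.

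IAA7 and IAA17 stood above their 0 min mean at 120 min in both genotypes. IAA7 was at 128% ± 24.4 in Col-0 and 119% ± 15.6 in rh6812, and IAA17 at 126% ± 19.1 and 119.5% ± 20.6. IAA14 was at 75.9% ± 6.68 in Col-0 and 98.6% ± 9.32 in rh6812. IAA19 was at 66.6% ± 37.2 in Col-0 and 173% ± 27.1 in rh6812, and IAA6 at 9.87% ± 11.7 and 177% ± 81.5. The IAA6 percentages rest on very scarce RNA. Its rh6812 level at 0 min was 0.255 ± 0.175 CPM per kb, with libraries from 26.9% to 163% of their mean. The rh6812 libraries of IAA6 at 0 and 120 min overlapped, so no rise can be read from the 177%. The lowest Col-0 library of IAA6 at 120 min was at 0%. IAA6 in Col-0 was still at 98.4% ± 92.4 at 15 min and came to 41.4% ± 37.8 at 60 min. The wide scatter of IAA6 and IAA19 in Col-0 came largely from replicate 3 of the series, which had the highest value of both transcripts at every time. For IAA19 it had 10.3, 9.85, 8.84, 8.24 and 7.89 CPM from 0 to 120 min, against 2.71 to 6.97 CPM in the other libraries. In the same libraries IAA7 and IAA17 had their lowest value of the 3 replicates at every time. The part of this library series in the results of other transcripts was tested only by leaving it out.

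**Figure D4:**
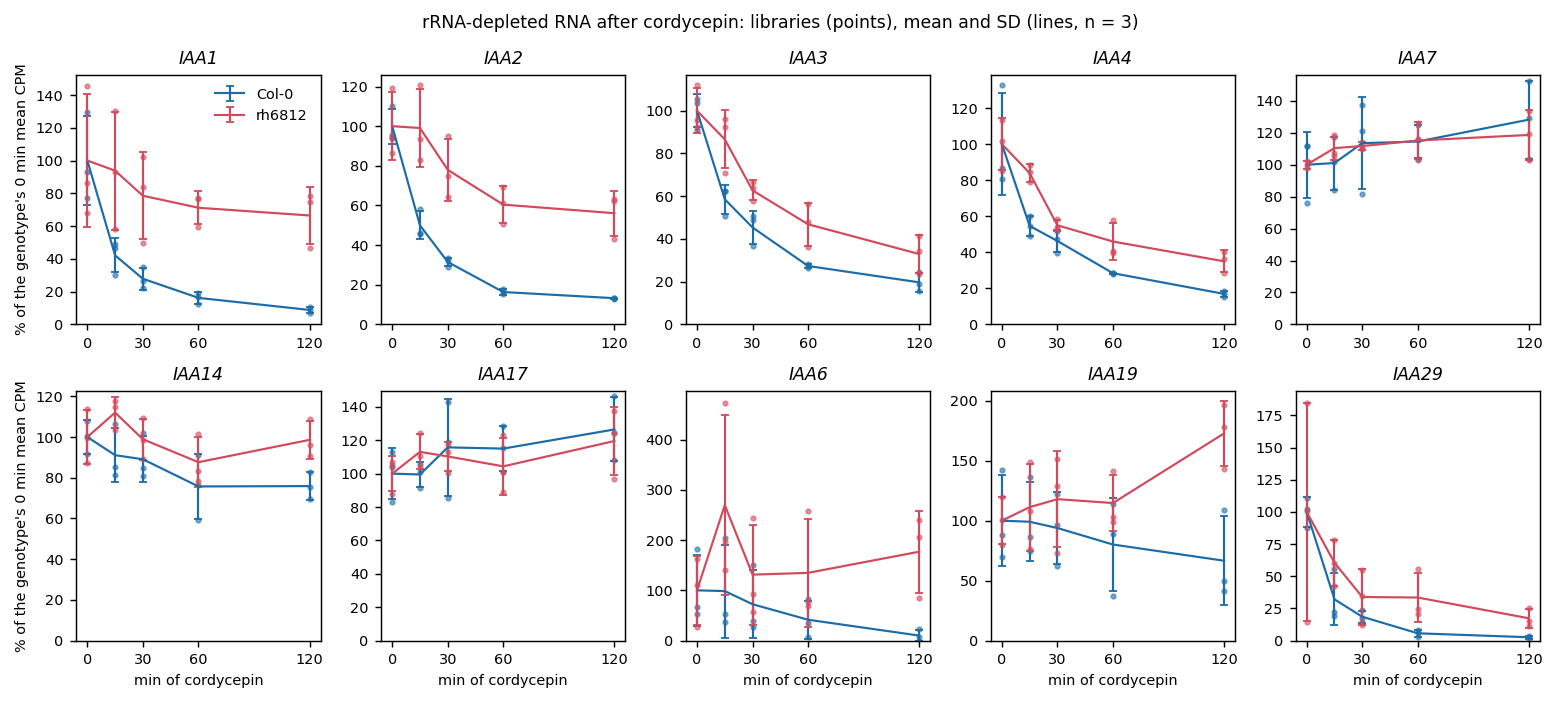
Each Aux/IAA transcript during cordycepin as a percentage of its genotype's mean CPM at 0 min (y axis, linear) against time in min (x axis), in Col-0 (blue) and rh6812 (red), with 1 point per library and lines for the mean with SD bars (n = 3). IAA1, IAA2, IAA3, IAA4 and IAA29 fall steeply in Col-0 before 30 min, whereas IAA7, IAA14 and IAA17 stay above 75% on average in both genotypes.

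Tests from 0 to 30 min called 5 transcripts lower in Col-0, where 5.24% of all genes were called lower and 5.9% higher. The log2 changes were -1.84 ± 0.31 for IAA1, -1.67 ± 0.16 for IAA2, -1.14 ± 0.16 for IAA3, -1.11 ± 0.16 for IAA4 and -2.44 ± 0.39 for IAA29. The other 5 lay between -0.53 ± 0.69 (IAA6) and 0.21 ± 0.16 (IAA17) and were not called. In rh6812, 2 were called lower, IAA3 at -0.67 ± 0.17 and IAA4 at -0.86 ± 0.16 (1.23% of all genes). The IAA3 call was lost without any 1 of the 3 rh6812 series (adjusted p from 0.086 to 0.219), and that of IAA4 without rh6812 replicate 2 (adjusted p = 0.0523). The other 8 lay between -1.47 ± 0.65 (IAA29) and 0.25 ± 1.18 (IAA6), and IAA1 and IAA2 were both at -0.36. The difference between genotypes over these 30 min was called for IAA2 alone, at 1.31 ± 0.23 (edgeR adjusted p = 0.00964), where 0.112% of all genes were called higher and 0.163% lower. Its size ran from 1.26 to 1.40 when a series was left out, and the call was lost in 3 of the 6 such fits, without Col-0 replicate 1 (adjusted p = 0.0837), Col-0 replicate 3 (adjusted p = 0.0657) or rh6812 replicate 2 (adjusted p = 0.0682). IAA1 was at 1.48 ± 0.43 (adjusted p = 0.225), and the other 8 lay between -0.07 ± 0.23 (IAA17) and 0.97 ± 0.82 (IAA29) and were not called.

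Straight lines of log2 abundance against time over all 5 times gave the slopes. In Col-0, 7 slopes were lower than 0 and 2 higher, with a median of -1.18 log2 units per hour for the 10 and -0.01 for all genes, of which 27.3% were called lower and 23.4% higher. IAA29 was the steepest at -3.22 ± 0.31 per hour, followed by IAA1 at -1.82 ± 0.20, IAA6 at -1.60 ± 0.41, IAA2 at -1.38 ± 0.15, IAA4 at -1.23 ± 0.11 and IAA3 at -1.14 ± 0.11 per hour. IAA14 was shallow at -0.20 ± 0.07 and lost the call without Col-0 replicate 1 (adjusted p = 0.134) or replicate 2 (adjusted p = 0.114). IAA7 (0.18 ± 0.07) and IAA17 (0.17 ± 0.07) were called higher with TMM scaling, but with library size alone their slopes were -0.00492 and -0.0121 per hour and neither was called, and IAA17 also lost its call without Col-0 replicate 1 (adjusted p = 0.0558) or replicate 2 (adjusted p = 0.058). IAA19, at -0.31 ± 0.15 per hour, missed the threshold (adjusted p = 0.0942), and without Col-0 replicate 3 it was -0.41 ± 0.15 and called (adjusted p = 0.0264). The curve of IAA2 in Col-0 flattened after 60 min, so a straight line describes it only coarsely.

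In rh6812, 4 slopes were called lower, where 11.6% of all genes were, and none higher. They were IAA3 at -0.83 ± 0.12, IAA4 at -0.77 ± 0.11, IAA2 at -0.45 ± 0.14 and IAA29 at -1.25 ± 0.44 per hour. The IAA3 and IAA4 calls held with each series left out. The IAA2 call was lost without any 1 of the 3 rh6812 series (adjusted p from 0.0641 to 0.165), and the IAA29 call without any of them (adjusted p from 0.0573 to 0.235) or without Col-0 replicate 3 (adjusted p = 0.0577). IAA1 was at -0.31 ± 0.17 per hour (adjusted p = 0.208), and IAA7, IAA14 and IAA17 lay between -0.07 and 0.10. IAA6 was at 0.08 but poorly measured, at -0.24 ± 1.05 up to 60 min and -0.06 ± 0.59 without rh6812 replicate 3. IAA19 was at 0.36 ± 0.17 (adjusted p = 0.138) and was called higher only without Col-0 replicate 3 (adjusted p = 0.0377).

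The slope difference, rh6812 minus Col-0, was called for 3 transcripts, all higher, where 9.29% of all genes were called higher and 4.56% lower. The median was 0.56 per hour for the 10 and -0.00 for all genes. The count was 6 with library size alone and with the DESeq2 Wald test, which added IAA6, IAA19 and IAA29, and 5 with the replicate number as a block, which added IAA6 (adjusted p = 0.0336) and IAA19 (adjusted p = 0.0386). The difference was 1.51 ± 0.27 per hour for IAA1 (edgeR adjusted p = 0.000373) and 0.93 ± 0.19 for IAA2 (adjusted p = 0.00168), and both calls held with every series left out. For IAA4 it was 0.46 ± 0.16 (adjusted p = 0.0476), and this call was lost whichever of the 6 series was left out, with the lowest value 0.29 ± 0.15 without Col-0 replicate 2. Just outside the threshold lay IAA19 at 0.67 ± 0.23 (adjusted p = 0.0503), IAA29 at 1.97 ± 0.70 (adjusted p = 0.0559) and IAA6 at 1.68 ± 0.62 (adjusted p = 0.0645). Without Col-0 replicate 3 IAA19 was called at 0.76 ± 0.19 (adjusted p = 0.010) and IAA6 at 1.81 ± 0.54 (adjusted p = 0.0294). For IAA7, IAA14 and IAA17 the differences were -0.08 ± 0.10, 0.13 ± 0.10 and -0.09 ± 0.10 per hour, and for IAA3 it was 0.31 ± 0.16. The slopes use the same libraries as the genotype differences at 0 and 120 min, so these values are not independent of each other.

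**Figure D5:**
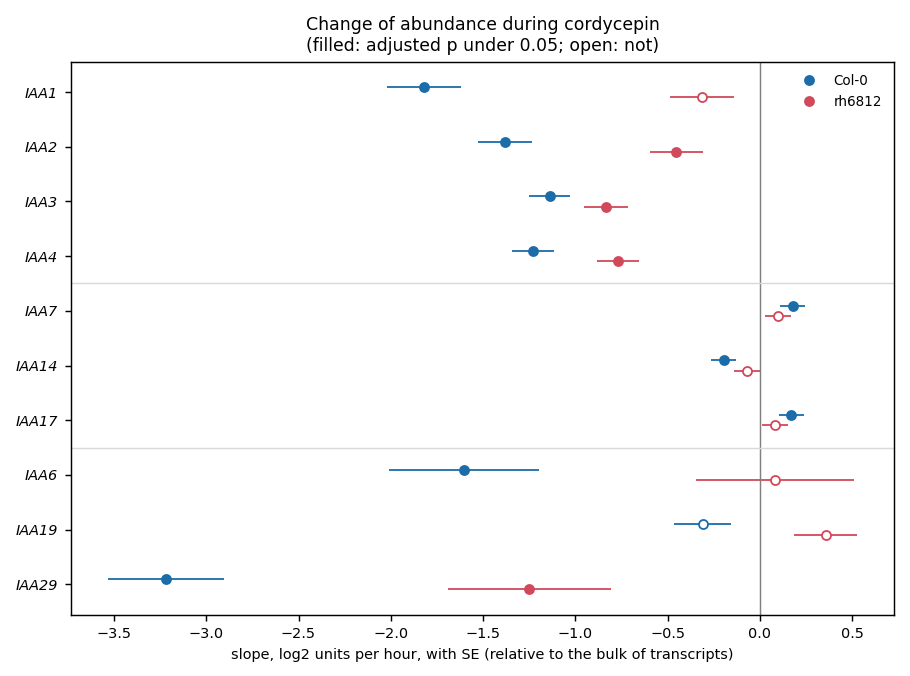
Slope of log2 abundance during cordycepin in log2 units per hour (x axis, relative to the bulk of transcripts) for each Aux/IAA transcript in Col-0 (blue) and rh6812 (red), with SE bars, filled where the edgeR adjusted p is under 0.05. IAA1 moves from -1.82 in Col-0 to -0.31 in rh6812 and IAA2 from -1.38 to -0.45, while the points of IAA7, IAA14 and IAA17 lie close together near 0.

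At 120 min, 2 transcripts were higher in rh6812 (29.8% of all genes) and 3 lower (26.8% of all genes), in contrast to the 10 lower at 0 min. All 3 rh6812 libraries lay above all Col-0 libraries for IAA1 and IAA2 (32.3% of all genes) and below them for IAA7, IAA14 and IAA17 (29.5% of all genes). IAA1 was higher by 1.57 ± 0.41 (edgeR adjusted p = 0.0021) and IAA2 by 1.34 ± 0.17 (adjusted p = 1.99e-07). IAA7 (-0.66 ± 0.17), IAA17 (-0.64 ± 0.16) and IAA3 (-0.61 ± 0.20) were lower, and none of these 3 was called with library size alone. The IAA3 call was also lost without Col-0 replicate 1 (adjusted p = 0.087) or rh6812 replicate 3 (adjusted p = 0.0717). IAA29 had come down to 5, 6 and 3 counts in Col-0 and 4, 1 and 3 in rh6812, so a difference was not detectable at this depth (-0.94 ± 1.03). Also not called were IAA6 (1.15 ± 1.28), IAA4 (0.14 ± 0.19), IAA14 (-0.29 ± 0.16) and IAA19 (-0.43 ± 0.41), of which IAA4 was called higher with library size alone (0.53 ± 0.20, adjusted p = 0.0244) and IAA19 turned to 0.10 without Col-0 replicate 3.

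Of the 5 transcripts that fell early, 3 have IAA7, IAA14 or IAA17 as a neighbour in the genome. In TAIR10.1, IAA1 and IAA14 are neighbours on chromosome 4, IAA2 and IAA7 on chromosome 3, and IAA3 and IAA17 on chromosome 1, in each case on opposite strands with 0 protein-coding genes between them. In all 3 pairs the member of the IAA1 to IAA4 clade fell by at least 1.14 log2 units per hour in Col-0, and the other member had a slope between -0.20 and 0.18. The pairs were noticed after the slopes were seen and were not tested. The sources used here do not say whether the counting used strand.

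Across the 14 groups, the profiles of the 10 were compared as log2 CPM centred within the poly(A)+ and within the rRNA-depleted groups. IAA29 followed the mean of the other 9 most closely (r = 0.94 over 14 groups) and IAA7 least (r = 0.26), with IAA17 at 0.57 and IAA2 at 0.66. Among pairs, IAA3 and IAA4 (r = 0.96) and IAA1 and IAA2 (r = 0.93) were the most alike, and IAA2 and IAA17 (r = -0.05) the least. Of 8523 other genes compared, the 5 closest to the mean of the 10 were AT5G02760 (r = 0.97), PYR1, an abscisic acid receptor (0.97), AT1G61100 (0.96), WNK1, a protein kinase (0.96), and CIPK20, a calcium-sensor-dependent protein kinase (0.96). These are descriptions over groups whose libraries share depth and scaling. Profiles were averaged without scaling to equal spread, so transcripts with large changes, such as IAA29 and IAA6, weigh more in the mean. Both had very few counts in the rh6812 polysome libraries.

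Of the 19 other Aux/IAA genes, 16 passed the count filter in the poly(A)+ set, and 4 rose and 7 fell in total RNA, where 32.2% of all genes rose and 32.4% fell, with a median of -0.11 on the log2 scale. IAA16 fell by 0.93 ± 0.08, IAA11 fell by 1.61 ± 0.20 and IAA27 rose by 1.13 ± 0.11. In ribosome association 1 of the 16, IAA28, was called higher (0.44 ± 0.13, edgeR adjusted p = 0.0276) and none lower at the same threshold. The shares over all genes were 3.3% higher and 6.45% lower, and 12 of the 16 values were negative, with a median of -0.23. In the slope difference 6 of 15 tested were higher and 1 lower, where 9.29% of all genes were higher and 4.56% lower, with IAA28 at 0.46 ± 0.10, IAA26 at 0.48 ± 0.11 and IAA5 at 1.61 ± 0.41 per hour.

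Other genes of the auxin pathway were counted the same way in total RNA, where 32.4% of all genes were called lower and 32.2% higher. Of the 6 TIR1/AFB receptors 5 fell and none rose, with AFB1 at -1.95 ± 0.12, AFB2 at -0.52 ± 0.09 and AFB4 at -0.53 ± 0.12. Of the 5 TOPLESS corepressors 3 rose and 1 fell, with TPL itself at 0.69 ± 0.08, TPR4 at 0.76 ± 0.10 and TPR3 at 0.74 ± 0.15. Of the 15 ARF genes 1 rose and 7 fell, with ARF6 at -1.32 ± 0.09, ARF18 at -1.96 ± 0.21 and ARF11 at -1.32 ± 0.18. In rRNA-depleted RNA at 0 min, where 24% of all genes were called lower and 24.4% higher, these directions recurred only in part. The receptor AFB1 was called lower again (-1.41 ± 0.16), but AFB2 was called higher (0.36 ± 0.09), and the receptor median was 0.09. The corepressor TPL was called higher again (0.45 ± 0.12) and TPR1 was called lower (-0.40 ± 0.14), with a corepressor median of -0.09. No other receptor or corepressor was called at 0 min. Of the ARF genes 9 fell and none rose at 0 min. None of the 6 receptors was called in ribosome association, where 6.45% of all genes were called lower and 3.3% higher. TPL alone of the 5 corepressors was called there, higher at 0.42 ± 0.12. Among the 15 ARF genes, ARF9 was called higher in it (0.66 ± 0.17) and ARF6 lower (-0.44 ± 0.14).

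Of 10 auxin synthesis genes 8 passed the filter, and 7 fell and none rose in total RNA, with a median of -1.34. At 0 min 5 fell and none rose. Over all genes 32.4% fell and 32.2% rose in total RNA, and 24% fell and 24.4% rose at 0 min. The flavin monooxygenase genes YUC8 and YUC5, which make auxin, were at -2.37 ± 0.18 and -3.26 ± 0.31, and the aminotransferase gene TAR2 was at -1.23 ± 0.15. In the slope difference 3 of the 8 were higher and none lower, against 9.29% and 4.56% of all genes, with TAA1 at 0.90 ± 0.14, YUC8 at 2.64 ± 0.52 and YUC2 at 1.81 ± 0.39 per hour. Of 6 auxin transport genes 2 rose and 4 fell in total RNA, with the efflux carrier gene PIN7 at -2.85 ± 0.11 and the influx carrier gene AUX1 at -1.03 ± 0.09. At 0 min 5 of these 6 fell and none rose. Ribosome association was called lower for 3 of the 8 synthesis genes and higher for 1, with a median of -0.95. It was called lower for 2 transport genes, PIN2 (-1.34 ± 0.34) and AUX1 (-0.50 ± 0.13), and higher for none. Over all genes 6.45% were called lower in it and 3.3% higher.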

How the data were processed

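Gene-level read counts of 42 libraries were analysed as deposited by the authors, who aligned reads with Bowtie2 2.2.5 and TopHat2 2.0.14 to TAIR10, per the submitters' processing notes. The sources used here name neither the counter nor its strand handling nor how polysomes were isolated. Loci blank in the poly(A)+ columns (212 of 27667) were left out there. In R 4.3.3, edgeR 4.0.16 (TMM, filterByExpr with a minimum count of 10 and total of 15, robust quasi-likelihood fits) was fitted to the 12 poly(A)+ libraries as 4 group means, and to the 30 rRNA-depleted libraries as 10 group means and as 1 line per genotype. All 10 members passed both filters. P-values were adjusted over all tested genes by the Benjamini-Hochberg method, with a threshold of 0.05. A standard error is the log2 value divided by the root of its F statistic, and is approximate. CPM values use TMM library sizes. Replicate libraries differed by more than counting noise (chi-square per degree of freedom from 3.02 to 29.4), so all were kept as separate samples.

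Reported were the 10 members, singly or by their range, up to 3 genes of each pathway list by smallest p, the 5 genes of most like pattern (mean log2 CPM of at least 3, prior count 1) and the targeted helicases. Members and lists were chosen with earlier results of these data known. Alternatives were DESeq2 1.42.0 (its size factors and its Wald test), library size alone, no count filter, a replicate block, other time ranges and leaving out each library or series. The fits were tested on simulated data, where they returned the direction and size put in. The simulated libraries were independent, with scatter set by a formula and few changed genes, as many raised as lowered. They could thus not test how scaling copes with the many genes called here, nor a pairing of replicates. The share of changed genes found was smallest for the 0 to 30 min difference between genotypes, where it missed the bar first set in 1 of 2 draws, and that bar was then replaced by criteria on direction, size and false calls. Within the Col-0 time series every correlation of same-numbered deviations was over 0.1 (from 0.124 to 0.395), so the numbers were taken to pair those libraries, from the data and not from the labels. The reported fits held no block all the same, and no call for the 10 in the Col-0 time comparisons changed with it. Gene names came from RefSeq for 27455 loci.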

Additional observations from a re-analysis of the deposited data

Results flagged for a closer look

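Results are listed here because a test of the difference between the genotypes itself passed the threshold (edgeR, adjusted over all genes). For ribosome association (how the ratio of polysome to total RNA differed in rh6812) the log2 values were -1.48 for IAA1, -0.47 for IAA2, -0.61 for IAA7, -1.02 for IAA14, -0.90 for IAA17 and -0.83 for IAA19. In the change from 0 to 30 min of cordycepin, IAA2 differed by 1.31. In the slope over 120 min, the difference was 1.51 log2 units per hour for IAA1, 0.93 for IAA2 and 0.46 for IAA4. The groups held 3 libraries each, too few to test whether a single library stands apart, but libraries or series were left out in turn. In ribosome association the IAA2 call was lost in 10 of 12 such fits, and those of IAA1 and IAA19 in 1 of 12 each. The 0 to 30 min call of IAA2 was lost in 3 of 6 fits, and the IAA4 slope call in 6 of 6. The other calls listed here held in every such fit.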

How the results depend on the processing

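Of 358 alternative counts of called transcripts, 335 stayed within 1.5 times the reported count and 23 moved. Those that stayed include reported counts of 0 that remained 0, and a drop from 6 to 4 lower in ribosome association. Of 1790 alternative values of single transcripts 1683 kept direction and call, 66 lost a call, 18 gained one and 23 changed sign. With library size alone, 0 transcripts were lower at 120 min, 0 higher in total RNA, 0 slopes higher in Col-0 and 6 slope differences higher. The DESeq2 Wald test also gave 6 slope differences, and slopes from the end points or up to 60 min gave 0 higher in Col-0. Leaving out 1 library or series gave 0 to 1 higher for the 0 to 30 min difference and for total RNA, 0 to 2 lower for 0 to 30 min in rh6812, 1 to 2 lower for polysome to total in rh6812, 1 to 2 higher for the Col-0 slope, and 0 to 1 higher and 2 to 4 lower for the rh6812 slope. The cause was not tested.

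Signs changed as follows. With library size alone, IAA14 at 120 min was 0.10, IAA17 was 0.0308 for the 0 to 30 min difference, -0.0300 for polysome to total in Col-0, -0.0121 for the Col-0 slope and -0.0188 for the rh6812 slope, and IAA7 was 0.0758 for the 0 to 30 min difference, 0.00317 for the slope difference, -0.00492 for the Col-0 slope and -0.00175 for the rh6812 slope. IAA14 from 0 to 30 min in rh6812 was 0.0134 by the Wald test and 0.0101 with DESeq2 size factors. The IAA6 slope in rh6812 was -0.24 up to 60 min. Leaving out 1 library or series gave log2 values from -0.0800 to 0.75 for IAA1, polysome to total in rh6812, from -0.0868 to 0.10 for IAA14, 0 to 30 min in rh6812, from -0.18 to 0.0443 for IAA17, 0 to 30 min difference, from -0.71 to 0.10 for IAA19, genotype at 120 min, from -1.35 to 0.20 for IAA29, polysome to total in rh6812, from -0.0201 to 0.47 for IAA6, 0 to 30 min in rh6812, from -1.11 to 0.13 for IAA6, polysome to total in rh6812, from -0.0630 to 0.30 for IAA6, slope in rh6812 and from -0.0532 to 0.0647 for IAA7, 0 to 30 min difference. The cause was not tested.

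Library size alone moved the median log2 value of all genes from -0.03 to -0.18 in total RNA, 0.04 to -0.19 for polysome to total in Col-0, -0.01 to -0.17 in rh6812, -0.02 to 0.20 at 0 min, 0.03 to 0.42 at 120 min, 0.00 to -0.14 from 0 to 30 min in Col-0 and -0.01 to -0.19 for the Col-0 slope. Calls over all genes (higher and lower) went from 6753 and 6783 to 5482 and 8448 in total RNA, 6425 and 5658 to 3840 and 8037 for polysome to total in Col-0, 5444 and 5696 to 3541 and 7363 in rh6812, 5240 and 5150 to 7203 and 2573 at 0 min, and 6402 and 5760 to 10093 and 2487 at 120 min. They went from 1267 and 1125 to 916 and 1678 from 0 to 30 min in Col-0, 5030 and 5864 to 1373 and 9977 for the Col-0 slope, 2171 and 2491 to 506 and 4169 for the rh6812 slope, and 1997 and 980 to 3065 and 253 for the slope difference.

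Outside the Col-0 time series, replicate numbers were not taken to pair the samples, since correlations of same-numbered deviations ran from -0.00 to 0.16 over 12 poly(A)+ pairs, from -0.13 to 0.20 between genotypes at the same time of cordycepin, and from -0.0138 to 0.40 within the rh6812 series. As a hint the other way, 12 of 12 poly(A)+ and 29 of 30 rRNA-depleted libraries correlated best with their own number. The numbers may thus pair these libraries too. The reported fits held no replicate block in any set and do not allow for such pairing. With the replicate block, 5 slope differences were higher, with IAA6 (1.60, edgeR adjusted p = 0.0336) and IAA19 (0.67, adjusted p = 0.0386) added to the 3 without it, and the rh6812 slope of IAA29 lost its call (adjusted p = 0.0508). Depth limits IAA6 and IAA29 in rh6812, which had 0 to 5 counts in each polysome library.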
